A study of Mus musculus with 18 samples.

Results

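Notch ligands, receptors and target genes were examined in mouse hearts after cold storage and reperfusion. These 10 genes, out of 34989 genes in the data, were chosen by name with earlier results of these data known. They were the ligands Dll4, Jag1 and Jag2, the receptors Notch1, Notch3 and Notch4, and the target genes Hes1, Hey1, Hey2 and Heyl. The study asks how the length of cold storage alters the left ventricle (LV) and right ventricle (RV) of a donor heart. Hearts were stored cold in histidine-tryptophan-ketoglutarate (HTK) preservation solution for 0, 4 or 8 h, then perfused outside the body with Krebs buffer for 60 min, and each ventricle was profiled by RNA sequencing. The 18 libraries formed 6 groups of 3: LV and RV at 0 h, LV and RV at 4 h, and LV and RV at 8 h of storage, each followed by the same reperfusion. By the labels, all mice were of strain C57B/L6 and aged 12 weeks, with no genetic change or drug named; the study's methods give a younger age and the use of both sexes. The 0 h hearts were reperfused too, so no group shows tissue without reperfusion, and effects of storage and of reperfusion after storage cannot be told apart. Library depth ran from 22552581 to 46236771 estimated counts.

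Notch receptors are membrane proteins that are bound by ligands of the Delta and Jagged families on a neighbouring cell. Binding lets ADAM proteases and gamma-secretase cleave the receptor, and the freed intracellular domain enters the nucleus, joins Rbpj and Mastermind proteins on DNA, and switches on genes of the Hes and Hey families of transcriptional repressors. In blood vessels Dll4, Jag1, Notch1 and Notch4 are known from endothelium and Notch3 and Heyl from the mural cells around it, while Hey2 is also known from the compact muscle of the ventricles.

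Some libraries stood apart. On the first principal component of all genes, which carried 44.6% of the variance, the stored libraries with number 3 lay at 38.3 (LV, 4 h), 44.5 (RV, 4 h), 74.2 (LV, 8 h) and 102 (RV, 8 h), and the other stored libraries lay between -13.2 and 33.9. All 0 h libraries lay between -59.1 and -43.8. Ddx3y, a gene of the Y chromosome, was at 1.47 and 2.44 CPM (counts scaled to library size) in LV number 3 at 4 and 8 h, at 1.73 and 1.56 CPM in RV number 3 at 4 and 8 h, and at 1.69 and 1.86 CPM in LV and RV number 2 at 0 h. In the other 12 libraries it lay between 62.1 and 115 CPM. LV and RV libraries with the same number and time thus shared a high or a low Ddx3y level, and within each stored group the low level fell on the library that stood apart. Results that rest on these libraries are given below with and without the 4 stored libraries numbered 3, a choice made after seeing the data. Whether results follow the Ddx3y level was not tested. Mitochondrial genes held 24.1%, 26.0% and 28.3% of counts in LV at 0 h, 26.3%, 26.4% and 24.9% at 4 h and 32.0%, 34.4% and 33.4% at 8 h. In RV they held 22.7%, 26.5% and 32.6% at 0 h, 26.1%, 27.7% and 26.9% at 4 h and 34.2%, 33.6% and 33.3% at 8 h. All 8 h libraries thus lay above the 0 h libraries of their ventricle, and the part of this in the 8 h results was not tested.

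All 10 genes were measured in every library. Comparing genes needs a length-corrected scale, so levels are given in TPM, which corrects for transcript length and depth. The TPM are those of each gene's leading transcript, which held between 88.2% and 100% of the gene's counts summed over libraries. In single libraries its share was as low as 84.4% (Jag2). In LV at 0 h (mean ± SD, n = 3) the transcriptional repressor Hes1 stood highest, at 36.6 ± 10.9 TPM, followed by Dll4 at 16.8 ± 0.940 TPM, Jag2 at 11.1 ± 0.346 TPM and Notch3 at 9.49 ± 1.5 TPM. Below these came Notch4 at 9.26 ± 0.213 TPM, Notch1 at 8.53 ± 0.640 TPM and Heyl at 6.99 ± 0.509 TPM. The lowest were Hey1 at 4.39 ± 0.322 TPM, Jag1 at 3.58 ± 0.738 TPM and Hey2 at 2.10 ± 0.428 TPM. Among neighbours in this order, library values overlapped for Jag2 and Notch3, Notch3 and Notch4, and Hey1 and Jag1.

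The RV at 0 h had nearly the same order, again with Hes1 (36.03 ± 16.4 TPM), Dll4 (14.2 ± 0.278 TPM) and Jag2 (10.0 ± 1.23 TPM) at the top. Notch3 (9.48 ± 0.904 TPM), Notch1 (9.20 ± 0.554 TPM) and Notch4 (8.73 ± 1.02 TPM) followed, with values that overlapped with each other and with Jag2, and those of Notch4 also with Heyl. Heyl lay at 6.91 ± 0.930 TPM, Hey1 at 5.26 ± 0.272 TPM, Jag1 at 3.62 ± 0.266 TPM and Hey2 at 3.59 ± 1.12 TPM, the last pair overlapping. After 8 h in RV, Hes1 stood at 62.4 ± 2.56 TPM, ahead of Dll4 at 11.1 ± 2.49 TPM and Notch1 at 10.2 ± 2.31 TPM. Heyl at 1.69 ± 0.255 TPM, Hey2 at 1.62 ± 0.331 TPM and Hey1 at 1.17 ± 0.558 TPM then took the last 3 places. After 8 h in LV the same 3 genes came last, with Heyl at 2.43 ± 1.07 TPM, Hey1 at 1.58 ± 0.566 TPM and Hey2 at 0.928 ± 0.0751 TPM, while Hes1 was highest at 32.1 ± 17.5 TPM. The order depends on the use of leading transcripts. Summed over all transcripts of a gene at 0 h, Jag2 (26.3 ± 2.71 TPM in LV and 25.1 ± 3.60 TPM in RV) and Notch4 (18.1 ± 3.23 TPM and 17.3 ± 2.004 TPM) had higher means than Dll4 (17.1 ± 1.25 TPM and 14.4 ± 0.465 TPM), and Notch1 (11.2 ± 1.47 TPM and 13.2 ± 0.921 TPM) had higher means than Notch3 (9.49 ± 1.5 TPM and 9.48 ± 0.904 TPM). At 8 h Notch1 (15.8 ± 3.97 TPM) then had a higher mean in RV than Dll4 (11.1 ± 2.45 TPM). These are levels within a group, and the changes over time were tested on counts.

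**Figure D1:**
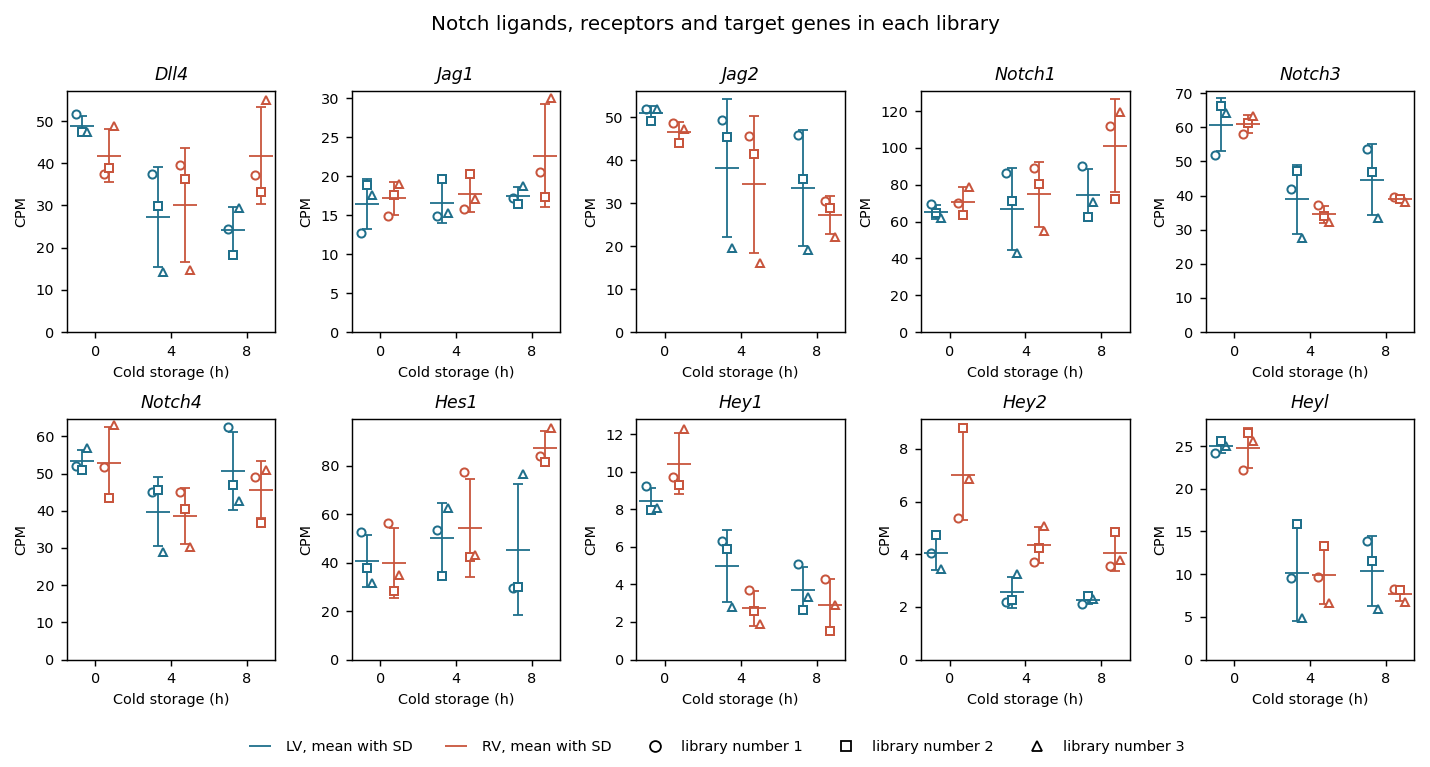
Levels of the 10 genes in CPM by ventricle and hours of cold storage, each point a library and each bar the mean with its SD (n = 3). Every stored RV library lies below every 0 h RV library for Notch3, Hey1, Hey2 and Heyl at both storage times.

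After storage Notch3, Hey1 and Heyl were lower in RV at both times, and Hey1 in LV and Hey2 in both ventricles were lower at 8 h. Hes1 was higher in RV at 8 h. The ligand genes did not pass the test, though Dll4 in LV and Jag2 in RV at 8 h passed it under some other settings. So did Heyl in LV at both times, with log2 fold changes of -1.30 and -1.25, against -1.32 and -1.67 in RV. The 8 h calls of Hey1 in LV and of Hey2 in both ventricles were lost in several fits without 1 library. In bulk tissue, fewer cells of a type and less RNA per cell cannot be told apart. A gene counted as changed at an adjusted p under 0.1 (edgeR's quasi-likelihood test, adjusted by Benjamini-Hochberg over all genes tested) and a fold change over 1.5. In LV at 4 h 0 of the 10 genes passed, against 2.79% of all 14564 genes tested. The unadjusted p was under 0.05 for 5 of the 10 and for 2271 of all genes. DESeq2 called 2 of the 10 (Notch3 and Heyl), and its higher count over all genes is given with the alternatives below. In LV at 8 h 2 of the 10 passed, both lower (Hey1 and Hey2), against 6.72% of all genes, and 1.26% in the lower direction. RV at 4 h had 3 lower (Notch3, Hey1 and Heyl), against 10.1% of 14622 genes, and 3.91% in the lower direction. RV at 8 h had 4 lower (Notch3, Hey1, Hey2 and Heyl) and 1 higher (Hes1), against 18.2% of all genes, with 5.26% lower and 13% higher. Between 8 h and 4 h no gene passed in either ventricle (0% of all genes in LV and 0% in RV); the unadjusted p was under 0.05 for 1180 genes in LV and 961 in RV, and DESeq2 called 71 and 43, with 0 of the 10 in each. The comparisons with 0 h in a ventricle share their 0 h libraries, and both times were fitted together. Since the 10 genes were chosen with earlier results known, the shares of all genes beside their counts describe the list and do not test it.

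Without the 4 stored libraries numbered 3, the members that passed were 2 in LV at 4 h (Hey2 and Heyl), 4 in LV at 8 h (Dll4, Hey1, Hey2 and Heyl), 4 in RV at 4 h (Notch3, Hey1, Hey2 and Heyl) and 5 in RV at 8 h (Jag2, Notch3, Hes1, Hey1 and Heyl). The count over all genes was then 781, 846, 1905 and 2104, against 407, 978, 1474 and 2665 with them. With all libraries the median log2 fold change of the 10 genes was -0.53 in LV at 4 h, -0.52 in LV at 8 h, -0.44 in RV at 4 h and -0.41 in RV at 8 h, where the median of all genes tested was -0.0044, -0.02, 0.0034 and -0.07. The medians of the 10 without the stored libraries numbered 3 were -0.34, -0.40, -0.21 and -0.48, and those of all genes -0.0071, -0.0098, -0.0098 and -0.05. Counted without a test, every stored library lay below every 0 h library for 6 of the 10 genes in LV at 4 h (Dll4, Notch3, Notch4, Hey1, Hey2 and Heyl), where 11.3% of all genes did. In LV at 8 h this held for 5 (Dll4, Jag2, Hey1, Hey2 and Heyl; 13.1% of all genes). In RV it held for 4 at 4 h (Notch3, Hey1, Hey2 and Heyl; 16.7%) and for 5 at 8 h (Jag2, Notch3, Hey1, Hey2 and Heyl; 17%).

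Single libraries moved these counts. Over 9 fits per ventricle, each missing 1 library, the members that passed ranged from 0 to 1 in LV at 4 h, 0 to 4 in LV at 8 h, 3 to 4 in RV at 4 h and 3 to 6 in RV at 8 h. The count over all genes ranged from 15 to 835 in LV at 4 h and from 142 to 1928 in LV at 8 h, lowest in both without LV number 2 at 0 h. In LV at 4 h it was 43 without number 3 at 0 h, 78 without number 1 at 4 h, 85 without number 3 at 4 h and 835 without number 3 at 8 h. In LV at 8 h it was 278 without number 3 at 0 h, 417 without number 3 at 8 h and 1928 without number 2 at 8 h. In RV it ranged from 321 to 2066 at 4 h and from 1263 to 4643 at 8 h, lowest in both without RV number 2 at 0 h. Leaving out RV number 3 at 0 h gave 352 and 1457. At 4 h it was 653, 922 and 917 without number 1, 2 or 3 at 4 h, and at 8 h it was 1665 without number 3 and 4643 without number 2 at 8 h. Between 8 h and 4 h in LV, 8 genes passed without number 3 at 8 h.

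**Figure D2:**
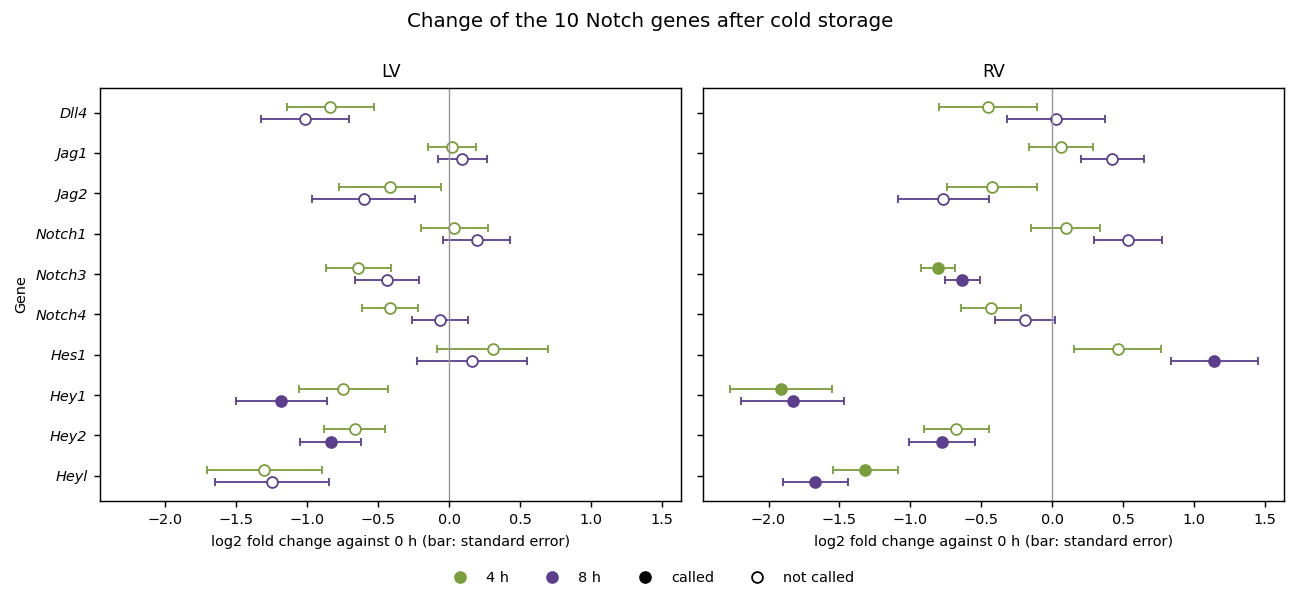
Log2 fold change against 0 h of the 10 genes (± standard error), LV and RV after 4 and 8 h, with filled points for genes that passed the test. Hey1, Hey2 and Heyl lie below 0 in all 4 comparisons, and Hes1 in RV at 8 h is the one filled point above 0.

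Of the 3 ligand genes, 0 passed edgeR's test in the comparisons with 0 h, while DESeq2 called 1, Dll4 in LV at 8 h (adjusted p = 0.0219). The unadjusted p was under 0.05 for 1 of the 3 in LV at 4 h, 1 in LV at 8 h, 0 in RV at 4 h and 1 in RV at 8 h. For all genes this count is given above for LV at 4 h only, so nothing is read from these ligand counts. Dll4 (ENSMUSG00000027314.6, chromosome 2 from 119325784 to 119335962, plus strand in GRCm38) codes for the Delta ligand of arterial and sprouting endothelium. In LV, in the order of library numbers 1, 2 and 3, it stood at 51.6, 47.4 and 47.4 CPM at 0 h, 37.4, 30.0 and 14.3 CPM at 4 h and 24.5, 18.3 and 29.4 CPM at 8 h. In RV it stood at 37.6, 38.9 and 48.9 CPM at 0 h, 39.5, 36.4 and 14.7 CPM at 4 h and 37.2, 33.3 and 55.0 CPM at 8 h. All 6 stored LV libraries lay below all 3 LV libraries without storage, whereas the RV groups overlapped and RV number 3 was the lowest library at 4 h and the highest at 8 h. In LV the log2 fold change was -0.84 (standard error 0.31, adjusted p = 0.232) at 4 h and -1.02 (standard error 0.31, adjusted p = 0.102) at 8 h, so neither passed. Without the stored libraries numbered 3, Dll4 fell by 1.20 on the log2 scale in LV at 8 h (adjusted p = 0.00396), and at 4 h its value was -0.53 (adjusted p = 0.115). The 8 h test was also passed without LV number 1 at 4 h (adjusted p = 0.0944) or LV number 3 at 4 h (adjusted p = 0.0373). With no filter on low counts it was passed too (-1.03, adjusted p = 0.0869). In RV the log2 fold changes were -0.45 at 4 h and 0.02 at 8 h (adjusted p = 0.55 and 0.968).

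Jag2 (ENSMUSG00000002799.6, chromosome 12 from 112907819 to 112929776, minus strand), a Jagged ligand, varied most through the libraries numbered 3. Its LV levels were 51.9, 49.0 and 52.0 CPM at 0 h, 49.3, 45.3 and 19.7 CPM at 4 h and 45.8, 35.5 and 19.1 CPM at 8 h. Its RV levels were 48.6, 44.0 and 47.3 CPM at 0 h, 45.7, 41.4 and 16.0 CPM at 4 h and 30.6, 28.9 and 22.1 CPM at 8 h. In each stored group number 3 was the lowest library, and at 8 h all stored libraries of both ventricles lay below those without storage. The log2 fold changes, -0.42 at 4 h and -0.60 at 8 h for LV, and -0.43 at 4 h and -0.77 at 8 h for RV, did not pass (adjusted p = 0.653, 0.344, 0.54 and 0.14). Each RV library correlated best with the RV libraries of its own number, so the number was also fitted as a block. The r of deviations was between 0.111 and 0.269 for 0 h with 4 h, 0.165 and 0.276 for 0 h with 8 h, and 0.327 and 0.487 for 4 h with 8 h. Ddx3y did not follow the number over time: RV number 2 was low at 0 h and high at 4 and 8 h, and number 3 the reverse. The labels do not say what the number marks. In RV at 8 h the test was passed with that block (-0.80, adjusted p = 0.0724), with transcript length offsets (-0.98, adjusted p = 0.0931), without RV number 3 at 4 h (-0.77, adjusted p = 0.015) and without all stored libraries numbered 3 (-0.66, adjusted p = 0.0126). Without the latter, the 4 h values were -0.11 in LV and -0.09 in RV.

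Jag1 (ENSMUSG00000027276.7, chromosome 2 from 137081456 to 137116644, minus strand), the other Jagged ligand, stood in LV at 16.4 ± 3.24 CPM at 0 h, 16.6 ± 2.61 CPM at 4 h and 17.4 ± 1.19 CPM at 8 h (mean ± SD, n = 3). In RV it stood at 17.1 ± 2.09 CPM, 17.7 ± 2.29 CPM and 22.6 ± 6.61 CPM, and RV number 3 at 8 h was the highest library, at 30.0 CPM. Its log2 fold changes were 0.02 at 4 h and 0.09 at 8 h for LV, and 0.06 at 4 h and 0.42 at 8 h for RV, the last with an adjusted p of 0.221. Its stored and unstored groups overlapped in both ventricles.

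Of the receptors, Notch3 (ENSMUSG00000038146.8, chromosome 17 from 32120820 to 32166852, minus strand), the receptor of pericytes and vascular smooth muscle, was lower after storage in RV. It stood in RV at 58.1, 61.4 and 63.4 CPM at 0 h, 37.1, 34.1 and 32.2 CPM at 4 h and 39.4, 39.1 and 38.2 CPM at 8 h. In LV it stood at 51.9, 66.3 and 64.2 CPM at 0 h, 41.9, 47.2 and 27.7 CPM at 4 h and 53.6, 47.0 and 33.5 CPM at 8 h. The stored and unstored RV libraries did not overlap at either time and the stored RV values lay close together, while in LV the 8 h group reached into the 0 h range through number 1. In RV Notch3 fell by 0.81 on the log2 scale (standard error 0.12, 1.75-fold, adjusted p = 0.00928) at 4 h and by 0.63 (standard error 0.12, 1.55-fold, adjusted p = 0.0111) at 8 h, lower in 3 of 3 libraries each time. In LV the log2 fold changes were -0.64 at 4 h and -0.44 at 8 h (adjusted p = 0.22 and 0.275). Both RV calls held in each of the 9 fits without 1 library (adjusted p from 0.0051 to 0.0578 at 4 h and 0.0155 to 0.0553 at 8 h) and without the stored libraries numbered 3 (-0.76 and -0.65).

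Notch1 (ENSMUSG00000026923.15, chromosome 2 from 26457903 to 26516663, minus strand), the main receptor of Dll4 in endothelium, ran in RV at 69.9, 63.6 and 79.0 CPM at 0 h, 89.2, 80.3 and 55.0 CPM at 4 h and 112, 72.3 and 119.5 CPM at 8 h. In LV it ran at 69.4, 64.5 and 61.8 CPM at 0 h, 86.5, 71.2 and 42.7 CPM at 4 h and 90.2, 62.4 and 70.7 CPM at 8 h. Stored and unstored groups overlapped, with number 3 the lowest library of each 4 h group. The RV log2 fold change at 8 h was 0.53 (standard error 0.24, adjusted p = 0.169), and the test was passed without RV number 2 at 8 h (0.72, adjusted p = 0.0475). The other 3 values against 0 h were 0.04 at 4 h and 0.19 at 8 h for LV and 0.10 at 4 h for RV, and with transcript length offsets they became -0.07, 0.74 and -0.13 (adjusted p = 0.943, 0.122 and 0.907). Notch4 (ENSMUSG00000015468.14, chromosome 17 from 34564268 to 34588503, plus strand), an endothelial receptor, stood in LV at 53.3 ± 3.16 CPM at 0 h, 39.8 ± 9.41 CPM at 4 h and 50.7 ± 10.4 CPM at 8 h. Its RV levels were 52.8 ± 9.87 CPM, 38.6 ± 7.59 CPM and 45.6 ± 7.65 CPM. It was lowest in number 3 of both 4 h groups, and all LV libraries at 4 h lay below those at 0 h. Its log2 changes of -0.42 at 4 h and -0.07 at 8 h for LV, and -0.43 at 4 h and -0.19 at 8 h for RV did not pass. Under other settings the LV values ran from -0.61 to -0.23 at 4 h and from -0.26 to 0.03 at 8 h. The RV values then ran from -0.81 to -0.29 and from -0.56 to -0.15, and none passed.

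Among the target genes, Heyl (ENSMUSG00000032744.4, chromosome 4 from 123233556 to 123249875, plus strand), known as a Notch3 target in mural cells, fell in RV at both times. There it stood at 22.2, 26.6 and 25.6 CPM at 0 h, 9.66, 13.3 and 6.61 CPM at 4 h and 8.22, 8.18 and 6.78 CPM at 8 h. In LV it stood at 24.2, 25.7 and 25.0 CPM at 0 h, 9.58, 15.9 and 4.82 CPM at 4 h and 13.9, 11.5 and 5.89 CPM at 8 h. No stored library of either ventricle reached the lowest library without storage, and number 3 was the lowest of every stored group. In RV Heyl fell by 1.32 on the log2 scale (standard error 0.23, 2.49-fold, adjusted p = 0.0144) at 4 h and by 1.67 (standard error 0.23, 3.18-fold, adjusted p = 0.00334) at 8 h. Both calls held without any 1 of the 9 libraries (adjusted p from 0.0113 to 0.0799 and 0.00153 to 0.0239) and without the stored libraries numbered 3 (-1.10 and -1.61). In LV the log2 fold changes of -1.30 (standard error 0.40) at 4 h and -1.25 (standard error 0.40) at 8 h did not pass (adjusted p = 0.169 and 0.119). Both passed with DESeq2 (adjusted p = 0.0236 and 0.0199) and with all 18 libraries in 1 fit (adjusted p = 0.0716 and 0.0663), and the 8 h value with no filter on low counts (adjusted p = 0.096). They also passed without the stored libraries numbered 3, at -0.97 (adjusted p = 0.0402) and -0.99 (adjusted p = 0.0311). Leaving out LV number 2 at 4 h or number 3 at 8 h also let the 4 h test pass (adjusted p = 0.0985 and 0.0816), as leaving out LV number 2 or 3 at 4 h did at 8 h (adjusted p = 0.0916 and 0.0561).

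Hey1 (ENSMUSG00000040289.8, chromosome 3 from 8663359 to 8667256, minus strand) is a repressor induced by Notch in endothelium. With all libraries it was the member with the largest fold change in RV. It stood there at 9.73, 9.28 and 12.3 CPM at 0 h, 3.72, 2.57 and 1.87 CPM at 4 h and 4.28, 1.51 and 2.89 CPM at 8 h. In LV it stood at 9.21, 7.97 and 8.06 CPM at 0 h, 6.31, 5.88 and 2.79 CPM at 4 h and 5.06, 2.64 and 3.35 CPM at 8 h. Stored and unstored libraries did not overlap in either ventricle. In RV Hey1 fell by 1.91 on the log2 scale (standard error 0.36, 3.77-fold, adjusted p = 0.0199) at 4 h and by 1.83 (standard error 0.36, 3.55-fold, adjusted p = 0.0129) at 8 h, and both calls held without any 1 of the 9 libraries (adjusted p from 0.0092 to 0.0938 and 0.0108 to 0.0564). Without the stored libraries numbered 3 the RV values were -1.70 and -1.84. At 8 h in RV the lead of Hey1 over Heyl was smaller than their standard errors. Without 1 library the Hey1 value rose as far as -1.53, whereas Heyl stayed between -1.74 and -1.59, so the order could turn. In LV at 8 h Hey1 fell by 1.18 (standard error 0.32, 2.27-fold, adjusted p = 0.0778), and at 4 h the value was -0.75 (adjusted p = 0.299). The LV call was lost without LV number 1, 2 or 3 at 0 h (adjusted p = 0.167, 0.226 and 0.165), number 2 at 4 h (0.102) or number 2 or 3 at 8 h (0.111 and 0.199), and with transcript length offsets (adjusted p = 0.125). It held without all stored libraries numbered 3 (-1.14, adjusted p = 0.0429).

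Hey2 (ENSMUSG00000019789.9, chromosome 10 from 30832359 to 30842801, minus strand), the repressor known from ventricular muscle and arteries, had the lowest TPM of the 10 genes at 0 h. In LV it stood at 4.03, 4.73 and 3.42 CPM at 0 h, 2.18, 2.25 and 3.24 CPM at 4 h and 2.10, 2.41 and 2.30 CPM at 8 h. In RV it stood at 5.38, 8.80 and 6.86 CPM at 0 h, 3.70, 4.24 and 5.06 CPM at 4 h and 3.54, 4.84 and 3.78 CPM at 8 h. All stored libraries lay below all libraries without storage in each ventricle, and number 3, unlike for Heyl and Hey1, was the highest library at 4 h. Hey2 fell by 0.84 on the log2 scale in LV at 8 h (standard error 0.22, 1.78-fold, adjusted p = 0.0689) and by 0.78 in RV at 8 h (standard error 0.23, 1.71-fold, adjusted p = 0.0566). At 4 h the values were -0.67 in LV (adjusted p = 0.176) and -0.68 in RV (adjusted p = 0.121). The RV value at 4 h passed with the library number as a block (-0.65, adjusted p = 0.0557), with DESeq2 (-0.67, adjusted p = 0.0824), with all 18 libraries in 1 fit (-0.70, adjusted p = 0.0507) or without RV number 1 at 0 h (-0.83, adjusted p = 0.0824).

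The 8 h calls of Hey2 were sensitive to single libraries. In LV the call was lost without number 1, 2 or 3 at 0 h (adjusted p = 0.133, 0.261 and 0.12) or number 1 or 3 at 8 h (0.152 and 0.148). In RV it was lost without number 2 or 3 at 0 h (adjusted p = 0.207 and 0.131) or number 1 or 3 at 8 h (0.156 and 0.141). Without the stored libraries numbered 3, Hey2 passed in LV at 4 h (-0.87, adjusted p = 0.0748), in LV at 8 h (-0.86, adjusted p = 0.0711) and in RV at 4 h (-0.81, adjusted p = 0.0893), and not in RV at 8 h (-0.75, adjusted p = 0.105).

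Hes1 (ENSMUSG00000022528.8, chromosome 16 from 30064384 to 30067796, plus strand), a repressor that answers to Notch and to other signals, was higher in RV after 8 h. In RV it stood at 56.4, 28.5 and 34.7 CPM at 0 h, 77.5, 42.4 and 43.0 CPM at 4 h and 84.2, 81.8 and 95.6 CPM at 8 h. In LV it stood at 52.6, 37.9 and 31.5 CPM at 0 h, 53.6, 34.5 and 62.5 CPM at 4 h and 29.6, 29.9 and 76.5 CPM at 8 h. All 3 RV libraries at 8 h lay above all RV libraries without storage, whereas in LV a single library, number 3, was high at 8 h. In RV Hes1 rose by 1.14 on the log2 scale at 8 h (standard error 0.31, 2.21-fold, adjusted p = 0.04). The call was lost without RV number 2 or 3 at 0 h (0.94 and 1.05, adjusted p = 0.15 and 0.141) and held without the stored libraries numbered 3 (1.04, adjusted p = 0.0692). The other values were 0.46 in RV at 4 h, 0.31 in LV at 4 h and 0.16 in LV at 8 h (adjusted p = 0.465, 0.784 and 0.827). The LV value at 8 h became -0.47 (adjusted p = 0.356) without the stored libraries numbered 3. From 4 h to 8 h in RV the log2 change was 0.68 (adjusted p = 0.599).

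Whether LV and RV differed was tested directly, in a fit of all 18 libraries. Without pairing, 0 of the 10 genes differed between LV and RV at 0 h (0.159% of 15093 genes did), at 4 h (0.0133%) or at 8 h (0.0331%). The counts over all genes were 24, 2 and 5, and over 18 fits missing 1 library each they ranged from 0 to 38, 0 to 4 and 0 to 362, the last without LV number 3 at 8 h. The unadjusted p was under 0.05 for 484, 446 and 1669 of all genes, and DESeq2 called 0, 0 and 1 of the 10 genes (Hey2 at 8 h, adjusted p = 0.0637). The difference between LV and RV in the change from 0 h, an interaction, passed for 0 of the 10 genes and 0% of all genes at 4 h, and again 0 of the 10 and 0% at 8 h. Here 158 and 628 genes had an unadjusted p under 0.05, and DESeq2 called 0 and 2 genes, none of the 10.

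The library numbers appear to pair the ventricles, since each of the 18 libraries correlated best with the library of its own number and time in the other ventricle (r of deviations from group means, over genes, between 0.325 and 0.697). With the pair as a block, 279, 291 and 1325 genes differed between LV and RV at 0, 4 and 8 h, and 1, 2 and 3 of the 10. Hey2 was then lower in LV at all 3 times, with log2 differences of -0.77, -0.77 and -0.83 (adjusted p = 0.0134, 0.0226 and 0.00302; 0.474, 1 and 0.248 without the block). Hey1 was higher in LV at 4 h (0.86, adjusted p = 0.023; 1 without the block). At 8 h Dll4 was lower in LV (-0.79, adjusted p = 0.00054; 0.417 without the block), and so was Hes1 (-1.09, adjusted p = 0.00801; 0.371 without the block).

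Blocked interactions passed for 46 genes at 4 h and 862 at 8 h, with 1 and 3 of the 10 genes among them. The change of Dll4 from 0 h to 8 h was lower in LV than in RV, with a log2 difference of -1.02 (adjusted p = 0.00218), against -1.02 (adjusted p = 1) without the block. For Hes1 at 8 h the difference was -1.14 (adjusted p = 0.0646), against -0.97 (adjusted p = 1) without it. The change of Hey1 was lower in RV than in LV, with a log2 difference of 1.16 at 4 h (adjusted p = 0.0801) and 0.67 at 8 h (adjusted p = 0.0896), against 1.18 and 0.65 (adjusted p = 1 and 1) without the block. Hey2, though lower in LV at all 3 times with the block, had blocked interaction values of -0.0030 and -0.07, against 0.03 and -0.05 without the block, none of which passed. Without the stored libraries numbered 3 and without a block, Dll4 (-0.72, adjusted p = 0.0847) and Hes1 (-1.48, adjusted p = 0.0985) passed between LV and RV at 8 h, and Hes1 also without LV number 3 at 8 h alone (-1.55, adjusted p = 0.0629).

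Other genes of the pathway were read from a list of 44, of which 42 passed the filter on low counts and Dll3 and Hes5 did not. By edgeR 1 rose in LV at 4 h (Dll1) and 2 rose in LV at 8 h (Dll1 and Psen2), with 0 falling at either time. The unadjusted p was under 0.05 for 10 of the 42 at each time in LV. The count over all genes at this cut is given above for LV at 4 h and not for 8 h. Nothing is read from these counts or from those of the marker lists below. DESeq2 also called Neurl1b (-1.08, adjusted p = 0.0907) and Nrarp (-1.10, adjusted p = 0.0381) lower in LV at 8 h. In RV 4 rose at 4 h (Dll1, Adam17, Maml1 and Rbpj) and 4 at 8 h (Dll1, Adam17, Maml1 and Dtx2), and 1 fell at each time (Neurl1b). The share that passed was 2.38% and 4.76% in LV and 11.9% and 11.9% in RV, at 4 and 8 h, against 2.79%, 6.72%, 10.1% and 18.2% of all genes tested. In RV DESeq2 also called Mfng lower at both times (adjusted p = 0.0298 and 0.0501), Aph1c lower at 4 h (adjusted p = 0.0774) and Lfng higher at 8 h (adjusted p = 0.0573). Mfng was also lower in edgeR at both times without the stored libraries numbered 3. Psen2, a gamma-secretase subunit, rose in LV at 8 h by 0.63 on the log2 scale (adjusted p = 0.0851), and Dtx2, a Deltex ubiquitin ligase, rose in RV at 8 h by 0.66 (adjusted p = 0.0522). Both calls were lost without the stored libraries numbered 3 (0.41 and 0.45, adjusted p = 0.103 and 0.134). The Psen2 call was also lost with transcript length offsets (adjusted p = 0.127), no filter on low counts (0.101) and all 18 libraries in 1 fit (0.148), and in 6 of the 9 fits without 1 library (adjusted p up to 0.263). Dtx2 was lost in 4 of 9, without any RV library at 0 h or number 3 at 8 h (up to 0.183). The median log2 fold change of the 42 genes was -0.10 at 4 h and -0.06 at 8 h for LV, and -0.07 at 4 h and -0.10 at 8 h for RV. For 8 h against 4 h, LV against RV at each time and both interactions, 0 of the 42 passed in edgeR with all libraries and no block. Maml1 (-0.70, adjusted p = 0.0921) and Notch2 (-0.61, adjusted p = 0.0767) were lower in LV than in RV at 8 h without the stored libraries numbered 3. Both also passed without LV number 3 at 8 h alone (adjusted p = 0.0629 each), and Maml1 without RV number 2 at 8 h (adjusted p = 0.0866). DESeq2 called 1 of the 42 in these comparisons, Maml1, between LV and RV at 8 h. The unadjusted p was under 0.05 for 3 genes in LV and 0 in RV between 8 h and 4 h. Between LV and RV this held for 0, 0 and 4 genes at 0, 4 and 8 h, and in the interactions for 0 and 2. With the library number as a block Mfng, a Fringe glycosyltransferase, fell in RV at both times (-1.59 and -1.39, adjusted p = 0.075 and 0.0704; -1.46 and -1.29, adjusted p = 0.104 and 0.101, without the block). The Fringe gene Lfng then rose in RV at 8 h (1.14, adjusted p = 0.0906; 1.16, adjusted p = 0.115, without the block).

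Dll1, a Delta ligand outside the 10 genes, had the largest log2 fold change of the 42 genes in each of the 4 comparisons with 0 h. In LV it stood at 8.24, 4.52 and 4.82 CPM at 0 h, 23.7, 13.8 and 24.9 CPM at 4 h and 21.8, 13.9 and 46.5 CPM at 8 h. In RV it stood at 5.70, 3.66 and 5.06 CPM at 0 h, 24.7, 15.6 and 29.9 CPM at 4 h and 32.2, 24.5 and 68.9 CPM at 8 h. Every stored library lay above every library without storage, and number 3 was the highest of each stored group. Dll1 rose in RV by 2.30 (standard error 0.42, 4.92-fold, adjusted p = 0.0177) at 4 h and by 3.15 (standard error 0.43, 8.88-fold, adjusted p = 0.00326) at 8 h on the log2 scale. In LV it rose by 1.82 (standard error 0.45, 3.54-fold, adjusted p = 0.0963) and 2.22 (standard error 0.45, 4.65-fold, adjusted p = 0.0369). Without the stored libraries numbered 3 all 4 calls held, at 1.67 at 4 h and 1.58 at 8 h for LV, and 2.08 at 4 h and 2.54 at 8 h for RV. The LV call at 4 h was lost with RLE size factors (adjusted p = 0.115) and without LV number 2 or 3 at 0 h, any LV library at 4 h or number 1 at 8 h (adjusted p = 0.357, 0.344, 0.235, 0.112, 0.259 and 0.129). The LV call at 8 h was lost without LV number 2 or 3 at 0 h (adjusted p = 0.176 and 0.133), and the RV call at 4 h without RV number 2 at 0 h (adjusted p = 0.101). With the pair as a block, Dll1 rose less in LV than in RV at 8 h (log2 difference -0.92, adjusted p = 0.00464; -0.91, adjusted p = 1, without the block).

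Neurl1b, a ubiquitin ligase that acts on Notch ligands, fell in RV. It stood there at 4.88, 6.64 and 7.15 CPM at 0 h, 1.56, 2.06 and 1.14 CPM at 4 h and 1.97, 1.38 and 2.74 CPM at 8 h, with no overlap between stored and unstored libraries. The log2 fold changes were -1.96 (standard error 0.32, adjusted p = 0.0123) and -1.59 (standard error 0.31, adjusted p = 0.013), and both calls held without any 1 of the 9 libraries and without the stored libraries numbered 3 (-1.78 and -1.89). In LV the values of -1.08 and -1.08 did not pass (adjusted p = 0.276 and 0.18), though the latter did without LV number 3 at 4 h (adjusted p = 0.0862). Adam17, a protease able to cleave Notch receptors, rose in RV by 0.65 and 0.72 at 4 and 8 h (adjusted p = 0.0283 and 0.011). Its LV values of 0.48 and 0.45 (adjusted p = 0.0701 and 0.0516) were under the fold threshold. Maml1, a Mastermind coactivator, rose in RV by 0.69 and 0.79 (adjusted p = 0.0358 and 0.0131), with LV values of 0.45 and 0.17 (adjusted p = 0.175 and 0.488). Rbpj, the DNA-binding partner of the cleaved receptors, stood in RV at 36.9, 35.9 and 30.4 CPM at 0 h, 51.3, 56.6 and 47.9 CPM at 4 h and 55.3, 48.7 and 46.5 CPM at 8 h, all stored libraries above those without storage. It rose by 0.61 at 4 h (adjusted p = 0.0362); at 8 h its 1.47-fold difference was under the fold threshold (log2 0.55, adjusted p = 0.0303). The 4 h calls of Adam17, Maml1 and Rbpj were lost without RV number 2 at 0 h (adjusted p = 0.135, 0.142 and 0.133), number 3 at 0 h (0.14, 0.164 and 0.166) or number 1 at 4 h (0.104, 0.122 and 0.118), and that of Rbpj also without number 2 at 4 h (0.114).

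The Rbpj test at 8 h in RV passed without RV number 1 at 0 h (0.61) or number 3 at 8 h (0.60), with RLE size factors (0.59, adjusted p = 0.0269) and with transcript length offsets (0.75, adjusted p = 0.021). Notch2, the receptor outside the 10 genes, had log2 fold changes of 0.56 at 4 h and 0.22 at 8 h for LV, and 0.52 at 4 h and 0.47 at 8 h for RV. The RV values had adjusted p of 0.0569 and 0.0522 with folds of 1.43 and 1.38, under the threshold of 1.5, and the 4 h test passed without RV number 1 at 4 h (0.62, adjusted p = 0.0661). Nrarp, a Notch target that feeds back on the pathway, stood in LV at 13.4, 16.3 and 14.3 CPM at 0 h, 12.3, 10.5 and 4.41 CPM at 4 h and 8.88, 4.17 and 7.47 CPM at 8 h. Its stored LV libraries lay below those without storage, and its values of -0.69 at 4 h and -1.10 at 8 h for LV, and -0.45 at 4 h and -0.43 at 8 h for RV did not pass (adjusted p = 0.413, 0.128, 0.546 and 0.396). In LV at 8 h it passed without LV number 3 at 4 h (-1.07, adjusted p = 0.0615) and without the stored libraries numbered 3 (-1.18, adjusted p = 0.0547). With the pair as a block, the change at 8 h differed between LV and RV for Maml1 (log2 difference -0.59, adjusted p = 0.0178; 1 without the block) and Nrarp (-0.67, adjusted p = 0.0211; 1 without the block). Dll1, Maml1 and Nrarp were then lower in LV than in RV at 8 h (-0.64, -0.66 and -0.70, adjusted p = 0.000999, 0.000635 and 0.00146; 0.626, 0.166 and 0.52 without the block).

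**Figure D3:**
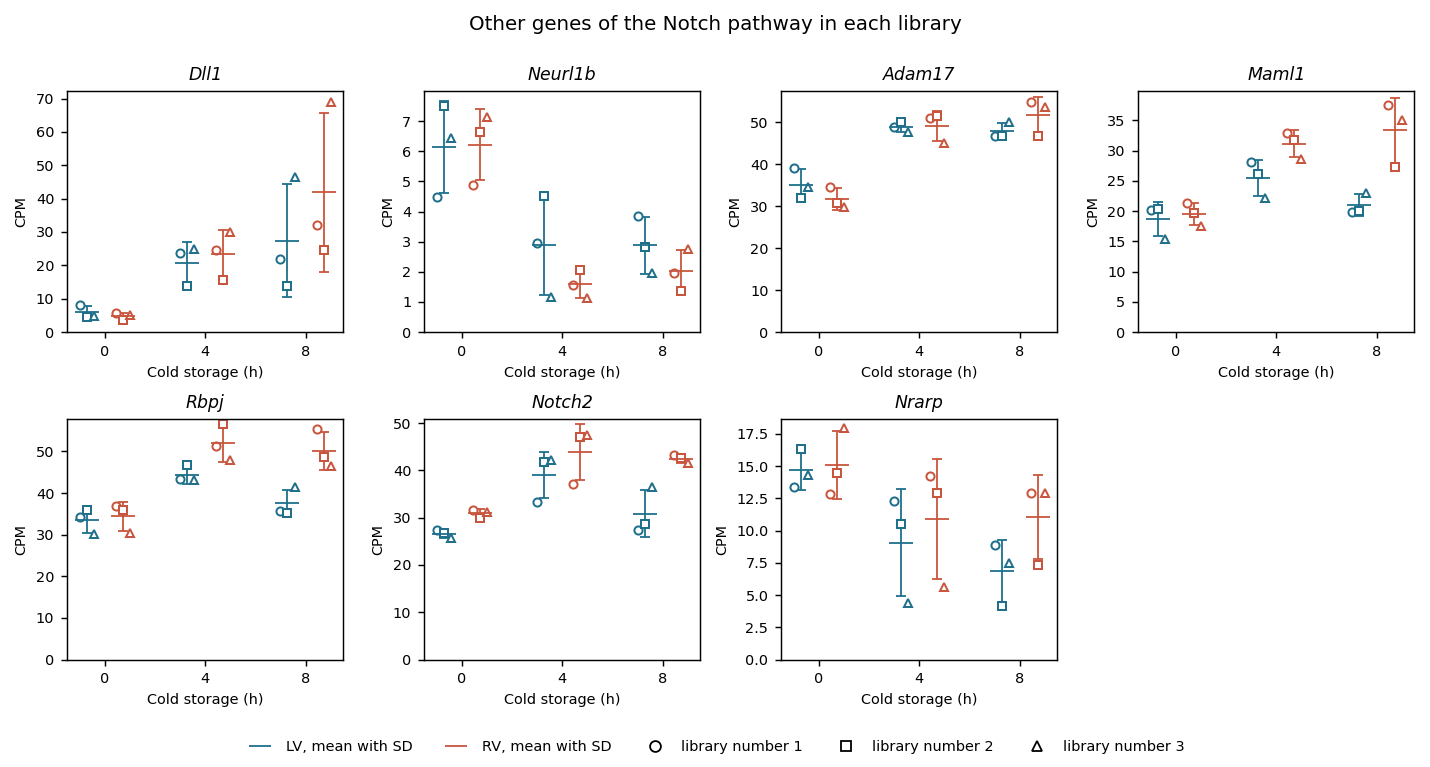
Levels in CPM of 7 further Notch pathway genes by ventricle and hours of cold storage, each point a library and each bar the mean with its SD (n = 3). Every stored library lies above every 0 h library of its ventricle for Dll1, and every stored RV library lies below every 0 h RV library for Neurl1b.

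Markers of the cell types that carry these genes were read beside them, from 8 lists of 44 genes, all of which passed the filter and none of which was at 0 in every library. Pericyte markers (5 genes, the most abundant Rgs5 at a mean of 585 CPM) did not all move alike. In RV 3 of 5 fell at 4 h (Cspg4, Kcnj8 and Pdgfrb) and 2 of 5 at 8 h (Cspg4 and Kcnj8). Rgs5 had log2 fold changes of 0.03 and 0.58 in RV (adjusted p = 0.975 and 0.123), the latter called higher by DESeq2 (0.60, adjusted p = 0.0466). In LV 0 of 5 passed at either time in edgeR, where the unadjusted p was under 0.05 for 2 genes at each time and DESeq2 called 2 at 4 h (Cspg4 and Pdgfrb). Without LV number 3 at 8 h, Cspg4 passed in LV at 4 h in edgeR (-0.83, adjusted p = 0.0975). Cspg4 fell in RV by 0.84 and 0.74 on the log2 scale (adjusted p = 0.0128 and 0.0101), and these calls held without any 1 of the 9 libraries. The summed pericyte level in RV was 888, 1023 and 968 CPM at 0 h, 866, 936 and 818 CPM at 4 h and 983, 999 and 1200 CPM at 8 h. In LV it was 959, 1065 and 994 CPM at 0 h, 922, 985 and 789 CPM at 4 h and 993, 1026 and 998 CPM at 8 h. The sums of stored and unstored groups overlapped in both ventricles. Per 100 CPM of that sum, Notch3 in RV stood at 6.54, 6 and 6.55 at 0 h, 4.29, 3.64 and 3.94 at 4 h and 4.01, 3.92 and 3.19 at 8 h. Heyl in RV stood at 2.49, 2.59 and 2.65 at 0 h, 1.12, 1.42 and 0.809 at 4 h and 0.836, 0.819 and 0.565 at 8 h. Both ratios kept every stored RV library below every RV library without storage, but Rgs5 alone made up between 50% and 83.2% of the sum. Heyl per 100 CPM in LV stood at 2.52, 2.41 and 2.52 at 0 h, 1.04, 1.61 and 0.611 at 4 h and 1.40, 1.12 and 0.590 at 8 h, also without overlap. Per 100 CPM of the other 4 pericyte markers, Notch3 in RV stood at 13.2, 12 and 16.2 at 0 h, 10.7, 7.95 and 11 at 4 h and 12, 10.2 and 18.9 at 8 h, so the 8 h group overlapped with the 0 h group. Per CPM of Cspg4 it stood at 2.31, 1.96 and 2.01 at 0 h, 2.28, 1.94 and 2.20 at 4 h and 2.12, 2.20 and 2.43 at 8 h, with overlap at both times. Heyl in RV stayed without overlap on both scales, at 0.879, 0.850 and 0.814 per CPM of Cspg4 at 0 h, 0.594, 0.756 and 0.453 at 4 h and 0.442, 0.459 and 0.431 at 8 h. In LV Heyl per CPM of Cspg4 overlapped at 4 h (0.544, 0.807 and 0.417, against 1.14, 0.752 and 0.802 at 0 h). The part of pericyte number or state in these results was not tested.

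Endothelial markers (8 genes, the most abundant Cdh5 at a mean of 200 CPM) were read beside Dll4, Jag2, Notch1, Notch4 and Hey1. In RV at 4 h 1 of 8 fell (Tek) and at 8 h 0 passed, and in LV 0 of 8 passed at either time in edgeR. Without RV number 3 at 4 h, Tek also passed in RV at 8 h (-0.59, adjusted p = 0.0824). The unadjusted p was under 0.05 for 3 and 2 genes in RV and 0 and 1 in LV. DESeq2 called Tek lower (-0.70, adjusted p = 0.0487) and Cldn5 higher (1.40, adjusted p = 0.0748) in RV at 4 h, Tie1 higher in RV at 8 h (0.60, adjusted p = 0.0969), and 0 in LV. The summed endothelial level in LV was 760.5, 719.7 and 894 CPM at 0 h, 924, 809 and 483 CPM at 4 h and 988, 762 and 715 CPM at 8 h. In RV it was 731, 638 and 972 CPM at 0 h, 929.5, 765 and 484 CPM at 4 h and 1033, 676 and 951 CPM at 8 h. Number 3 was the lowest library of both 4 h groups, as for Dll4, Jag2, Notch1 and Notch4. Dll4 per 100 CPM of that sum stood in LV at 6.78, 6.59 and 5.30 at 0 h, 4.05, 3.71 and 2.97 at 4 h and 2.48, 2.40 and 4.12 at 8 h, all stored below all unstored. The RV ratio was 5.14, 6.10 and 5.03 at 0 h, 4.25, 4.76 and 3.03 at 4 h and 3.60, 4.92 and 5.79 at 8 h, and the 8 h group overlapped with the 0 h group. Jag2 per 100 CPM lay in LV between 5.81 and 6.82 at 0 h, 4.07 and 5.60 at 4 h and 2.67 and 4.66 at 8 h, without overlap with 0 h. In RV it lay between 4.86 and 6.90 at 0 h, 3.31 and 5.41 at 4 h and 2.33 and 4.28 at 8 h, with overlap at 4 h. Hey1 per 100 CPM stood in RV at 1.33, 1.45 and 1.26 at 0 h, 0.401, 0.336 and 0.386 at 4 h and 0.414, 0.223 and 0.304 at 8 h. In LV the ratio stood at 1.21, 1.11 and 0.901 at 0 h, 0.683, 0.727 and 0.578 at 4 h and 0.512, 0.347 and 0.469 at 8 h, again without overlap. Arterial endothelial markers (7 genes, the most abundant Unc5b) gave in edgeR 0 of 7 in LV, 3 of 7 lower in RV at 4 h (Bmx, Gja5 and Sema3g), and 2 lower (Bmx and Gja5) and 1 higher (Gja4) in RV at 8 h. DESeq2 called Gja5 lower in LV at 4 h (-0.74, adjusted p = 0.0821) and 8 h (-0.69, adjusted p = 0.0767), and in LV the unadjusted p was under 0.05 for 2 genes at 4 h and 1 at 8 h. Their sum in RV was 92.9, 81.7 and 119.7 CPM at 0 h, 106, 78.8 and 58.4 CPM at 4 h and 121, 82.4 and 152 CPM at 8 h. In LV it was 82.1, 87.3 and 110 CPM at 0 h, 107, 82.8 and 56.4 CPM at 4 h and 103, 75.3 and 95.6 CPM at 8 h, with overlapping groups. Whether endothelial content has a part in these results was not tested.

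Markers of ventricular cardiomyocytes (6 genes, led by Myh6 at a mean of 30368 CPM) were read beside Hey2. At 8 h in LV 1 of 6 fell (Myh6, by 0.63 on the log2 scale, adjusted p = 0.041), a value that turned to 0.16 with transcript length offsets and did not pass with all 18 libraries in 1 fit (-0.64, adjusted p = 0.169), and 0 of 6 passed in the other comparisons with 0 h in edgeR or DESeq2, with an unadjusted p under 0.05 for 0 genes in each. Myh6 passed in RV at 8 h with all 18 libraries in 1 fit (-0.65, adjusted p = 0.068) and without RV number 2 at 8 h (-0.94, adjusted p = 0.052). Their sum in LV was 56600, 50490 and 46300 CPM at 0 h, 51500, 45480 and 52370 CPM at 4 h and 37150, 40250 and 35160 CPM at 8 h. In RV it was 57590, 52960 and 49570 CPM at 0 h, 51840, 49760 and 52970 CPM at 4 h and 38550, 47180 and 24930 CPM at 8 h. The 8 h sums lay below those without storage in both ventricles. Hey2 per 100 CPM of this sum stood in LV at 0.00712, 0.00936 and 0.00739 at 0 h, 0.00423, 0.00495 and 0.00618 at 4 h and 0.00565, 0.00598 and 0.00654 at 8 h, all stored below all unstored. In RV it stood at 0.00934, 0.0166 and 0.0138 at 0 h, 0.00714, 0.00852 and 0.00955 at 4 h and 0.00919, 0.0103 and 0.0152 at 8 h, and there both stored groups overlapped with the 0 h group. The part of cardiomyocyte RNA in the Hey2 result was not tested. Of the remaining lists, smooth muscle (4 genes, led by Acta2) and atrial cardiomyocytes (4 genes, led by Nppa) had 0 genes pass in any comparison with 0 h. In smooth muscle 2 of 4 had an unadjusted p under 0.05 in RV at 8 h, and DESeq2 called both (Cnn1 and Tagln). The atrial sum lay between 53.5 and 799.5 CPM. Fibroblasts (5 genes, led by Dcn) had 1 higher in RV at 8 h in edgeR (Tcf21), and DESeq2 also called Col1a1 higher in LV at 8 h (0.59, adjusted p = 0.081). Leukocytes (5 genes, led by Csf1r) had Ptprc higher in all 4 comparisons and Adgre1 higher in RV at 8 h.

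Several marker calls rested on single libraries. Pdgfrb in RV at 4 h was lost without RV number 2 or 3 at 0 h or number 3 at 4 h (adjusted p = 0.141, 0.139 and 0.113), and passed at 8 h without RV number 1 at 0 h or number 3 at 8 h (adjusted p = 0.0776 and 0.0481). Kcnj8 at 4 h was lost in 7 of the 9 fits, all but those without RV number 2 or 3 at 8 h (adjusted p up to 0.269), and at 8 h without RV number 2 or 3 at 0 h or number 3 at 8 h (adjusted p = 0.113, 0.127 and 0.115). Tek at 4 h was lost in 7 of the 9 fits, all but those without RV number 1 at 0 h or number 3 at 8 h (up to 0.346). Sema3g was lost in 6, all but those without RV number 1 at 0 h or number 2 or 3 at 8 h (up to 0.299). Bmx at 4 h was lost without RV number 2 or 3 at 0 h (0.115 and 0.112) and Gja5 at 4 h without RV number 3 at 0 h (0.133). At 8 h Gja5 was lost in 8 fits, all but that without RV number 2 at 0 h (up to 0.222), and Gja4 in 6, all but those without RV number 1 or 3 at 4 h or number 2 at 8 h (up to 0.261). Tcf21 was lost without any RV library at 0 h or number 1 at 8 h (up to 0.133), Adgre1 without RV number 2 at 0 h (0.118), and Myh6 without LV number 1 or 2 at 0 h or number 3 at 8 h (up to 0.173). The calls of Ptprc in all 4 comparisons and of Bmx in RV at 8 h held without any 1 library. Other settings also ended calls in RV. Gja5 at 8 h was under the fold threshold with RLE size factors (-0.56) and DESeq2 (-0.58). It did not pass with no filter on low counts or with transcript length offsets (adjusted p = 0.162 and 0.32). At 4 h Gja5 was lost with length offsets (-0.56, adjusted p = 0.388) and Kcnj8 with all 18 libraries in 1 fit (adjusted p = 0.142). Tek at 4 h was lost with RLE size factors, no filter or length offsets (adjusted p = 0.108, 0.108 and 0.121). Without the stored libraries numbered 3, Kcnj8 fell in LV at 4 h (-0.79, adjusted p = 0.0202), Adgre1 rose in LV at 8 h (0.65, adjusted p = 0.081) and Myh6 did not pass there (-0.55, adjusted p = 0.0714). In RV at 4 h Adgre1 (0.70, adjusted p = 0.0664), Cldn5 and Sox17 then rose, Gja4 fell (-0.97, adjusted p = 0.0973), and Tek did not pass (-0.53, adjusted p = 0.149). In RV at 8 h Pdgfrb (-0.63, adjusted p = 0.0195) and Tek (-0.61, adjusted p = 0.0961) fell, and Gja4 (0.85, adjusted p = 0.107) and Gja5 (-0.56, adjusted p = 0.181) did not pass.

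With the library number as a block, 8 of the 44 markers rose and 4 fell in RV at 8 h, against 4 and 4 without it, and 2 rose and 6 fell at 4 h, against 1 and 7. Without the block 18.2% of the markers passed at 8 h and 18.2% at 4 h, against 18.2% and 10.1% of all genes. The block also raised the counts over all genes in RV, which are given with the alternatives below. The endothelial marker Cldn5 then rose in RV at both times (1.52 and 1.32, adjusted p = 0.0265 and 0.0256; 0.201 and 0.215 without the block). Tek at 4 h no longer passed (-0.72, adjusted p = 0.105). The fibroblast marker Col1a1 rose in RV at 8 h (0.60, adjusted p = 0.0416; 0.165 without the block). So did the smooth muscle markers Cnn1 (0.87, adjusted p = 0.0302; 0.138) and Tagln (0.74, adjusted p = 0.0167; 0.106). Between LV and RV, and in the interactions, 0 of the 44 markers passed in edgeR with all libraries and without pairing, and DESeq2 called 0. The unadjusted p was under 0.05 for 1, 0 and 4 markers at 0, 4 and 8 h and for 0 in both interactions. Once the stored libraries numbered 3 were left out, Ptprc was lower (-0.71, adjusted p = 0.0395) and Kcnj8 higher (0.69, adjusted p = 0.0685) in LV than in RV at 8 h, and Ptprc also passed without RV number 3 at 8 h (adjusted p = 0.0616). With the pair as a block Acta2 was lower in LV at 0 h (-0.59, adjusted p = 0.0274; 1 without it). At 8 h 5 markers were lower in LV: Gja4 (-0.79), Sox17 (-0.61), Cldn5 (-0.77), Tcf21 (-0.81) and Tagln (-0.60), with adjusted p of 0.00585, 0.0036, 0.00327, 0.00127 and 0.0399 (0.456, 0.704, 0.666, 0.312 and 0.376 without it). The blocked change from 0 h to 8 h was lower in LV than in RV for Sox17 (-0.65, adjusted p = 0.036) and Cldn5 (-0.97, adjusted p = 0.0162), both with an adjusted p of 1 without the block.

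Over the 18 libraries, log2 CPM values of some of the 10 genes went together. Over all libraries the closest pair was Notch3 and Heyl (Pearson r = 0.923, n = 18 libraries; 0.866 after group means were removed), followed by Jag2 and Heyl (0.837 and 0.851) and Hey1 and Heyl (0.824 and 0.476). After group means were removed, Notch1 and Hey1 (0.926, against 0.0328 over all libraries) and Notch1 and Notch4 (0.905, against 0.53) were closer. Hey2 then ran opposite to Notch4 (-0.776), Notch1 (-0.729), Hey1 (-0.712), Dll4 (-0.583), Jag2 (-0.557), Notch3 (-0.383) and Heyl (-0.351). Hes1 ran opposite to Heyl (-0.65 and -0.649) and Notch3 (-0.609 and -0.654). These libraries share storage times and library numbers, so the values describe likeness and carry no test.

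Among all other genes, those most like each member over the same 18 libraries were Mertk (r = 0.936) and Nrarp (0.907) for Dll4, Fgd5 (0.956) and Inpp5d (0.949) for Jag2, and Tspan5 (0.857) and Mfsd14a (0.856) for Jag1. For the receptors they were Cygb (0.971) and the pericyte marker Cspg4 (0.963) for Notch3, Flt1 (0.933) and Fgfr1 (0.887) for Notch1, and Podxl (0.942) and Ggta1 (0.938) for Notch4. For the targets they were Caskin2 (0.95) and Dvl2 (0.947) for Heyl, Hic1 (0.922) and Tmem71 (0.894) for Hey1, Gstt1 (0.927) and Pfkfb1 (0.915) for Hey2, and Csrnp2 (0.878) and Ier2 (0.876) for Hes1.

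The DNA just before the starts of the 10 genes was searched where a promoter was at hand. The letters searched were GTGGGAA, a form of the sequence that Rbpj binds, and their reverse complement TTCCCAC. Of Notch3, Hey1, Hey2 and Heyl, which fell in RV at 8 h, only Notch3 and Hey2 could be searched. RefSeq promoters of GRCm38.p6 were at hand for 7 of the 10 genes, and Hes1, Hey1 and Heyl had none. In the 250 bases before the RefSeq start, 1 of the 7 held a match, Hey2, with TTCCCAC starting 207 bases before the start, where 1779 of 32851 promoters (5.42%) held 1. Dll4, Jag1, Jag2, Notch1, Notch3, Notch4 and, from the pathway list, Nrarp held none in this window. RefSeq starts can differ from the gene ends given above: the windows of Notch1 and Jag2 lie inside their genes, with starts 12841 and 281 bases in, and those of Jag1, Notch4 and Hey2 share 124, 27 and 18 bases with theirs. The sequences of Hey2 (chr10:30842784-30843033) and of Notch3 (chr17:32166891-32167140), shown as a target gene with the match and the receptor gene that fell in RV, are written 5′ to 3′ on the minus strand, with capitals for TTCCCAC. A match describes letters only.
Hey2: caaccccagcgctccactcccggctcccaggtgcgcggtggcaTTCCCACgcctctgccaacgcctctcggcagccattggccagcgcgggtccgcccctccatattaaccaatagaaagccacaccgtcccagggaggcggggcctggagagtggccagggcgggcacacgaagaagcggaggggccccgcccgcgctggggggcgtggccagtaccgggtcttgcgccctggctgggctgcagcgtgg
Notch3: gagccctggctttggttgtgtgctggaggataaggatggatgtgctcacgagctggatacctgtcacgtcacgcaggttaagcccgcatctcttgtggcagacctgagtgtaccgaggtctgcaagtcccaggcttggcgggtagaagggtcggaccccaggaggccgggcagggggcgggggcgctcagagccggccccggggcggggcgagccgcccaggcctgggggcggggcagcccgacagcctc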

How the data were processed

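Total RNA of mouse LV and RV after storage and reperfusion was sequenced, and the authors deposited 1 table per library from kallisto, run on GRCm38 transcripts. The authors deposited estimated counts for each transcript, the unit of all tests here. The authors deposited TPM as well, which was used only to compare levels between genes. Of 111462 transcripts, 110203 matched GENCODE M21 and were summed over 34989 genes; the other 1259 held between 0.31% and 0.383% of a library's counts. Depth ran from 22552581 to 46236771 estimated counts per library, and mitochondrial genes held 22.7% to 34.4% of counts. The sums were rounded to whole counts, filtered with filterByExpr, normalised by TMM and tested with edgeR 4.0.16 (quasi-likelihood F test, R 4.3.3), with 9 libraries per ventricle for storage times and all 18 for LV against RV and for the interaction. A call needed a Benjamini-Hochberg adjusted p under 0.1 over all genes tested and a fold change over 1.5, the thresholds of the study. CPM values were TMM-normalised, and a prior count of 2 was used for log2 CPM in correlations and principal components. The figures and tables used Python 3.11.15.

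Alternatives were RLE size factors, DESeq2 1.42.0, no filter on low counts, offsets from the deposited effective transcript lengths, the library number as a replicate block, all 18 libraries in 1 fit, each library left out in turn, and, chosen after seeing the data, the 4 stored libraries numbered 3 left out. Blocked values are printed in the report where the block changed a call in RV or between LV and RV; for storage times in LV they stand with the alternatives below. Whether a number pairs libraries was checked by correlating deviations from group means; the labels do not say what the numbers mark. The code was tested on simulated data. For LV at 8 h against 0 h, edgeR recovered 60% of 2-fold changes and DESeq2 75%. Of the calls made there, 5.7% with edgeR and 21.7% with DESeq2 were unchanged genes. For the interaction at 8 h edgeR recovered 23% of 2-fold changes, and 7.6% of its calls were unchanged genes. The simulated libraries were drawn independently with 200 genes changed. None was made to stand apart, and none shared spread with others of its number. These rates thus check the code and may not hold for these data. Members and lists were chosen with earlier results of these data known. From the list of other pathway genes, those called in the same direction at 4 h and 8 h in at least 1 ventricle were named, plus Notch2, Rbpj and Nrarp, those that complete a count or whose call an alternative changed, and the 2 genes most correlated with each member. The p-values reflect the spread between libraries.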

Additional observations from a re-analysis of the deposited data

Results flagged for a closer look

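Interaction tests with libraries of the same number and time fitted as a pair, the replicate block, were screened for the 10 genes and some other pathway genes. The latter were Dll1, Neurl1b, Adam17 and Maml1, which were called in RV at both storage times, and Notch2, Rbpj and Nrarp. The rest of the 42 other pathway genes were not part of this screen. For 6 of the screened genes the change with storage differed between LV and RV with the block. In none of them did it pass without the block. With the same block 46 of all 15093 genes passed at 4 h and 862 at 8 h. From 0 h to 8 h the log2 difference, LV minus RV, was -1.02 for Dll4, -1.14 for Hes1, -0.92 for Dll1, -0.59 for Maml1 and -0.67 for Nrarp. For Hey1 it was 1.16 from 0 h to 4 h and 0.67 from 0 h to 8 h. Without the block the same differences were -1.02, -0.97, -0.91, -0.60 and -0.65, and for Hey1 1.18 and 0.65, with adjusted p of 1 throughout. The block removes spread that both ventricles of a pair share, and the pairing rests on the library numbers and on the correlation between libraries, since the labels do not state it. Single libraries, and the stored libraries numbered 3, were left out only in fits without the block. The blocked calls were thus not checked in this way. Within groups of 3 no test was run for a library far from the rest.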

How the results depend on the processing

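The 10 genes' fold changes kept their direction wherever a call was made, over the alternatives and the fits without 1 library each. Storage times had 7 alternatives. LV against RV and the interactions had 6, since all 18 libraries in 1 fit was their main fit. A total of 2160 such values was computed, all alternatives ran, and 136 had the other sign with no call on either side. Calls differed in 38 values under the 7 alternatives and in 27 without 1 library. Notch3, Hey1 and Heyl in RV passed at both times under all 7 alternatives and without any 1 library.

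In LV at 4 h the genes called, 407, became 913 with DESeq2, 662 with the replicate block and 781 without the stored libraries numbered 3; members, 0, became 2, 1 and 2, and 2 with all 18 libraries in 1 fit. In LV at 8 h 978 became 1500 with DESeq2 and 1540 with the block; members, 2, became 4 with DESeq2, 4 with no filter, 1 with transcript length offsets, 4 with the block, 3 with all 18 libraries in 1 fit and 4 without the stored libraries numbered 3. Blocked in LV, Dll4 (-1.01, adjusted p = 0.0855) and Heyl (-1.36, adjusted p = 0.0435) passed at 8 h and Heyl at 4 h (-1.45, adjusted p = 0.068), as did Nrarp (-1.13, adjusted p = 0.0985) and Ryr2 (-0.62, adjusted p = 0.0334) at 8 h and Pdgfrb (-0.84, adjusted p = 0.083) at 4 h. Between 0 h and 4 h in LV 4 of 6 libraries correlated best with their own number, between 0 h and 8 h 2 of 6, and between 4 h and 8 h 6 of 6. With all 18 libraries in 1 fit Pdgfrb (-0.79, adjusted p = 0.0549) and Gja5 (-0.74, adjusted p = 0.0716) at 4 h and Gja5 (-0.70, adjusted p = 0.0723) at 8 h passed in LV. In RV at 4 h 1474 genes became 1962 with DESeq2, 2026 with the block, 1899 with all 18 libraries in 1 fit and 1905 without the stored libraries numbered 3; members, 3, became 4 in each of these (Hey2). In RV at 8 h 2665 became 3025, 3548, 3322 and 2104; members, 5, became 6 with length offsets and with the block (Jag2). Between 8 h and 4 h the 0 genes in LV became 71 with DESeq2, 1 with the block and 21 without the stored libraries numbered 3; in RV they became 43 with DESeq2, 1 with all 18 libraries in 1 fit and 2 without the stored libraries numbered 3.

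Between LV and RV, the 24 genes at 0 h became 59 with DESeq2, 11 with length offsets, 279 with the block and 60 without the stored libraries numbered 3. The 2 at 4 h became 24, 0, 291 and 0, and the 5 at 8 h became 182, 0, 1325 and 212, and 0 with RLE size factors. Members, 0 each time, became 1, 2 and 3 with the block, and at 8 h 1 with DESeq2 and 2 without the stored libraries numbered 3. Interactions, 0 at both times, became 46 genes and 1 member at 4 h and 862 genes and 3 members at 8 h with the block; at 8 h 2 genes with DESeq2 and 15 without the stored libraries numbered 3. Myh6 in LV at 8 h reversed with length offsets (0.16, from -0.63). The cause of these differences was not tested. By construction the block removes spread shared within a number, and left-out libraries leave fewer samples. Some fits without 1 library called more genes than the fit with all libraries, and others called fewer.

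Without 1 library, genes called ranged from 15 to 835 (LV, 4 h), 142 to 1928 (LV, 8 h), 0 to 8 (LV, 8 h against 4 h), 321 to 2066 (RV, 4 h) and 1263 to 4643 (RV, 8 h), and between LV and RV from 0 to 38, 0 to 4 and 0 to 362 at 0, 4 and 8 h. Members ranged from 0 to 1 (LV, 4 h), 0 to 4 (LV, 8 h), 3 to 4 (RV, 4 h), 3 to 6 (RV, 8 h) and 0 to 1 (LV against RV, 8 h). With 3 libraries a group, a p that misses the threshold does not show that levels were alike. The least abundant gene by lowest count, Hey1, had 34 counts in its lowest library.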
